A study of Mus musculus with 7 samples.

Results

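This comparison set the 2 short hairpins against Dpep2 side by side: 2 libraries carrying shDpep2.968 and 2 carrying shDpep2.759, which are 4 of the 7 libraries of the series. The cells were RAW264.7, a mouse macrophage-like cell line, and gene expression was measured by sequencing of total RNA. Every compared library carried a hairpin against the same gene, so the control hairpin shNT (3 libraries) entered neither the gene filter nor the fit and is given as a level only. Genes were taken if they had at least 10 counts in 2 or more of the 4 libraries, which kept 13045 of 55417 gene symbols. At the edge of that rule 165 symbols had a second-highest count of exactly 10 and were kept, and 193 had 9 and were not. The labels do not say whether replicates were separate cultures or whether a line was made from 1 clone, so a p-value speaks only of how far these libraries spread, and that spread may be technical. The labels give no treatment other than the hairpins and no time of harvest.

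Dpep2 encodes a membrane-bound dipeptidase that is known to convert leukotriene D4 to leukotriene E4. A short hairpin RNA is cut by Dicer to a short duplex, of which the guide strand is loaded into an Argonaute protein and directs the silencing of transcripts that pair with it. Hairpins of different sequence against the same gene are commonly used together because they share the intended target but not the guide strand.

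Dpep2 stood at 22.5 and 17.9 CPM (counts scaled to equal library size) with shDpep2.968 against 24.3 and 19.5 CPM in the shDpep2.759 libraries. The libraries of the hairpins overlapped. The log2 fold change, here always shDpep2.968 minus shDpep2.759, was -0.12 (SE 0.20, 95% interval -0.54 to 0.31, edgeR quasi-likelihood adjusted p = 0.863). Dpep2 with shDpep2.968 was thus 92.0% of its level with shDpep2.759, with an interval of 68.6% to 123.5%, which does not show that the levels were equal. The sign was not stable: the difference was 0.02 without shDpep2.968 replicate 2 and 0.05 without shDpep2.759 replicate 1. With shNT, Dpep2 stood at 55.7, 60.5 and 52.3 CPM. All shNT values here were scaled over 7 libraries, a scaling that moves the hairpin libraries' own CPM by factors of 0.9798 to 1.005.

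The 4 libraries held 16950278 to 18401060 counts. They did not group by hairpin over all genes: the root-mean-square log2 difference was 0.421 between shDpep2.968 replicate 1 and shDpep2.759 replicate 2, against 0.481 between the shDpep2.968 replicates and 0.517 between the shDpep2.759 replicates. The largest distance, 0.646, lay between shDpep2.968 replicate 2 and shDpep2.759 replicate 1. Those 2 libraries also deviated in opposite directions with GC content. Across 12666 genes, which are not independent replicates, the Spearman correlation of a library's deviation with GC content was -0.479 for shDpep2.968 replicate 2, 0.363 for shDpep2.759 replicate 1, 0.182 for shDpep2.968 replicate 1 and -0.0899 for shDpep2.759 replicate 2. The log2 fold change accordingly had a Spearman correlation of -0.28 with GC content, and its median ran from 0.21 in the 1267 genes with the lowest GC content to -0.09 in the 1267 with the highest.

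**Figure D1:**
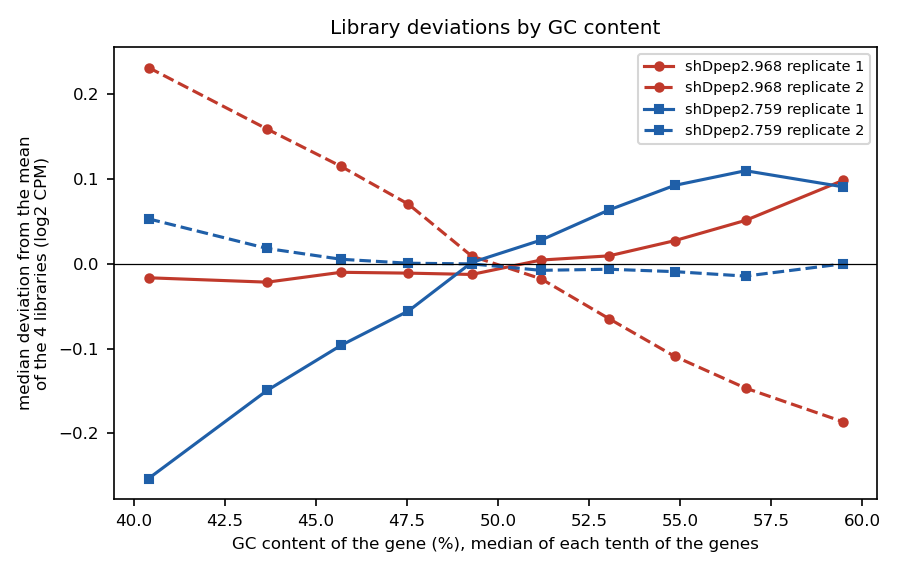
Median deviation of each library from the mean of the 4 libraries (log2 CPM) in each bin of genes ordered by GC content (%), with shDpep2.968 in red and shDpep2.759 in blue. shDpep2.968 replicate 2 falls from 0.23 to -0.19 along the axis and shDpep2.759 replicate 1 lies at -0.25 at its low end, where the other 2 libraries lie nearer to 0.

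Between the hairpins 63 genes differed (0.483% of genes tested), 20 higher with shDpep2.968 (0.153%) and 43 higher with shDpep2.759 (0.33%), by edgeR's quasi-likelihood test at a Benjamini-Hochberg adjusted p under 0.05. At an unadjusted p under 0.05 there were 1508 genes (11.6%). Among the genes higher with shDpep2.968 were the prostaglandin synthase Ptgs2, the chemokine Cxcl2, the plasminogen activator Plau, the osteoclast fusion gene Ocstamp and the heat shock gene Hspa1b. Those higher with shDpep2.759 held the chemokine Ccl22 and the chemokine receptor Ccr7, the surface receptors Slamf7, Siglece, Cd83 and Tnfrsf1b, the cholesterol exporter Abca1, and the secreted proteins Il36g, Lcn2 and Slpi. In all 63 genes both libraries of 1 hairpin lay above both of the other. The calls were made on these same 4 libraries, which favours such genes, so this adds no support to them. Over all tested genes it held for 21.9% with shDpep2.968 above and 21% with shDpep2.759 above. A difference of at least 1 on the log2 scale was reached by 15 of the 20 and 27 of the 43.

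The count of calls depended on single libraries and on the way the spread was estimated. It was 3 without shDpep2.968 replicate 1, which kept none of the 63, and 5 without shDpep2.968 replicate 2, which kept only Ccl22 and Slamf7. Without shDpep2.759 replicate 1 it was 89 and without shDpep2.759 replicate 2 it was 1138, and these kept 49 and all 63. The 14 genes lost without shDpep2.759 replicate 1 were Atosb, Ccnd2, Cd300e, Csf3r, Cth, Depdc1a, Fgr, Gm18445, Klk9, Ndrg4, Pea15a, Rnf11, Tmx1 and Tnfaip8l2. With all 7 libraries in the fit 115 genes were called, 59 of them among the 63, without Clip4, Depdc1a, Fpr1 and Serpinb2. A correction for GC content and length called 130, 56 of them among the 63, without Adora2a, Cd300e, Cth, Depdc1a, Lcn2, Ntng2 and Serpinb2. Fitted by limma-voom, or by edgeR without robust estimation, 9 genes were called each time. Ccl22, Slamf7, Abca1, Il36g, Ocstamp, Plekha3, Rab15 and the unnamed gene 6530402F18Rik were in both sets. None of the 63 changed sign in any of the alternative fits that gave it a value. Medians of gene lists were less stable: with each library left out in turn, 32 of 37 moved by over 1.5 times or turned sign, and 14 turned sign. The exceptions were the lists of G1/S genes, LXR targets, Siglec and lectin receptors, chemokine and cytokine receptors, and macrophage identity.

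**Figure D2:**
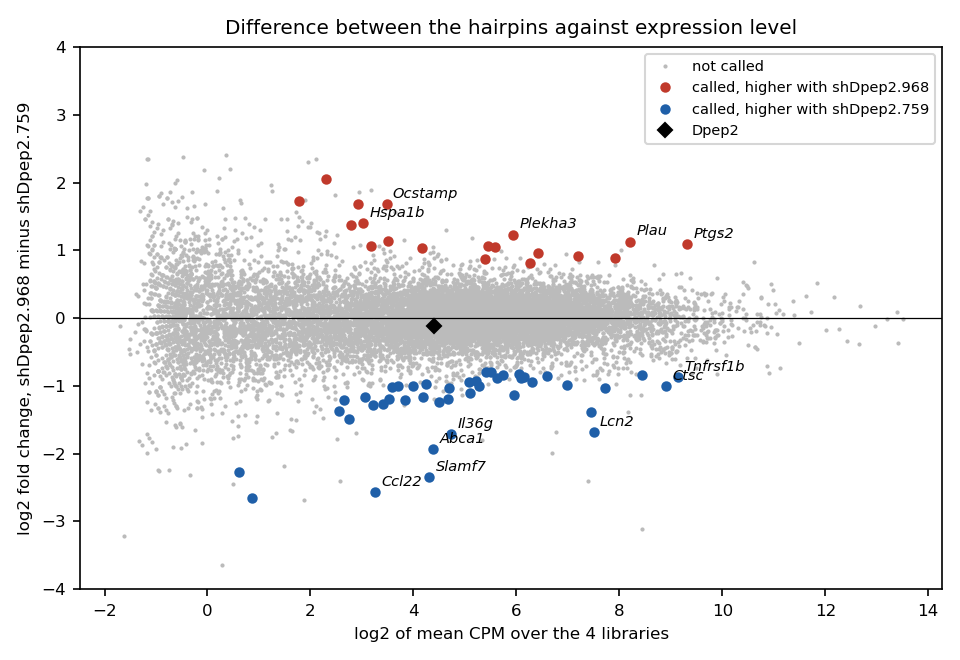
Log2 fold change between the hairpins (shDpep2.968 minus shDpep2.759) against the log2 of the mean CPM over the 4 libraries, 1 point per gene, with the 20 genes called higher with shDpep2.968 in red and the 43 called higher with shDpep2.759 in blue. Dpep2 (black) lies at -0.12. Gm20507, at 0 counts with shDpep2.759, lies beyond the axis and is not drawn.

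Among called genes averaging at least 5 CPM the largest fold changes were those of Ccl22, Slamf7 and Abca1, all higher with shDpep2.759. Ccl22, a chemokine made by macrophages and dendritic cells that attracts cells bearing CCR4, stood at 2.27 and 3.23 CPM in the shDpep2.968 libraries against 18.1 and 14.7 CPM in the shDpep2.759 libraries. It was 5.95-fold higher with shDpep2.759 (log2 fold change -2.57, SE 0.26, adjusted p = 0.000149). The shNT libraries, at 5.69, 3.90 and 3.93 CPM, lay between the hairpins and nearer to shDpep2.968. Slamf7, a receptor of the signalling lymphocytic activation molecule family, stood at 4.30 and 8.70 CPM in the shDpep2.968 libraries against 35.2 and 31.1 CPM in the shDpep2.759 libraries. Its fold was 5.10 (log2 fold change -2.35, SE 0.28, adjusted p = 0.00685). The shNT libraries held 4.23 to 6.42 CPM of Slamf7, so the shDpep2.759 libraries stood apart from the other 5. Ccr7, the receptor that guides dendritic cells to lymph nodes, was 6.33-fold higher with shDpep2.759, but from 0.639 and 0.346 CPM to 3.08 and 3.23 CPM, and Adora2a, an adenosine receptor, was 4.81-fold higher at a similarly low level.

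Of 13 tested dendritic cell and costimulation genes 2 were called, Ccr7 and Cd83, both higher with shDpep2.759 (0.33% of all genes). At an unadjusted p under 0.05, 4 were higher with shDpep2.759 (5.98% of all genes) and 1 higher with shDpep2.968 (5.58%). The median log2 fold change of the 13 was -0.30 against 0.00 for all genes tested. Without shDpep2.968 replicate 1 that median was -0.18. Cd83 stood at 31.1 and 38.1 CPM in the shDpep2.968 libraries, 65.2 and 62.5 CPM in the shDpep2.759 libraries and at 14.5 to 16.3 CPM with shNT. It was thus above shNT with both hairpins and 1.85-fold higher with shDpep2.759 (adjusted p = 0.0343). Itgax, the integrin alpha X chain CD11c, went the other way in its values, with 8.31 and 7.66 CPM against 2.25 and 4.58 CPM, and did not pass the test (log2 fold change 1.23, SE 0.31, adjusted p = 0.0932). In a bulk sample fewer cells of a type and less RNA per cell cannot be told apart. Of the 19 genes listed 6 had under 10 counts in every library, among them Flt3, Batf3 and Clec9a. Cd209a and Cd70 were at 0 counts in all 4 libraries. The list's summed level was 229.5 and 262.3 CPM with shDpep2.968 and 334.4 and 312.3 CPM with shDpep2.759. The part of such cells in the result was not tested.

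Among 31 tested Siglec, Cd300, Ms4a, Slamf and lectin receptors 3 were called, all higher with shDpep2.759: Slamf7, Siglece and Clec4a3. A further 8 had an unadjusted p under 0.05 in that direction, which makes 11 of 31 where 5.98% of all genes did so, and 2 had one in the other direction, where 5.58% did. The median of the list was -0.30. Siglece, an inhibitory receptor that binds sialic acid, stood at 10.9 and 11.6 CPM in the shDpep2.968 libraries against 25.9 and 24.6 CPM in the shDpep2.759 libraries (2.25-fold, adjusted p = 0.0133). Its shNT libraries held 5.75 to 8.02 CPM, below both hairpins. Clec4a3, a C-type lectin receptor, stood at 10.1 and 11.1 CPM against 21.9 and 20.7 CPM (2.01-fold, adjusted p = 0.0343). Outside that list, the activating receptor gene Cd300e was called 1.93-fold higher with shDpep2.759 (adjusted p = 0.0376). The Src-family kinase gene Fgr, also outside it, was 1.90-fold higher with shDpep2.759 (adjusted p = 0.0376).

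Of the 27 tested genes listed as chemokine and cytokine receptors 1 was called, Csf3r, the receptor for granulocyte colony-stimulating factor. The called receptor genes Ccr7 and Tnfrsf1b were counted in other lists. At an unadjusted p under 0.05, 7 of the 27 were higher with shDpep2.759 and none higher with shDpep2.968. Over all genes these shares were 5.98% and 5.58%. Csf3r stood at 7.26 and 6.74 CPM in the shDpep2.968 libraries against 19.5 and 12.4 CPM in the shDpep2.759 libraries (2.28-fold, adjusted p = 0.0376). Fpr1, the formyl peptide receptor of phagocytes, stood at 5.58 and 5.24 CPM against 13.0 and 13.3 CPM (2.43-fold, adjusted p = 0.0159). Scavenger, complement and phagocytic receptors had none of 27 called, with 9 at an unadjusted p under 0.05 higher with shDpep2.759 (5.98% of all genes) and 3 higher with shDpep2.968 (5.58%). The complement factor Cfb stood at 38.9 and 42.5 CPM against 94.3 and 57.1 CPM and did not pass (adjusted p = 0.0982). None of 25 macrophage identity genes was called. Their median was -0.13, and 9 of the 25 had a higher point value with shDpep2.968. Their summed level was 19540 and 19600 CPM with shDpep2.968 and 25050 and 21670 CPM with shDpep2.759. Lyz2 had the most counts in that sum, with 161388 and 167443 against 250399 and 185239, so the sum largely follows this 1 gene. Adgre1, the macrophage surface antigen F4/80, came nearest to a call, at 145.4 and 155.0 CPM against 246.8 and 265.6 CPM (log2 fold change -0.77, SE 0.17, adjusted p = 0.0567). Itgam, the CD11b chain, had a log2 fold change of -0.54 (adjusted p = 0.233).

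Il36g, Slpi and Lcn2, which encode secreted proteins, were grouped after their values were seen. Il36g, a cytokine of the interleukin-1 family, stood at 11.2 and 13.8 CPM in the shDpep2.968 libraries against 41.7 and 39.9 CPM in the shDpep2.759 libraries, with a fold of 3.27 (log2 fold change -1.71, SE 0.19, adjusted p = 0.000331). The shNT libraries held 12.6, 6.71 and 6.67 CPM, so Il36g was set apart in the shDpep2.759 libraries alone. Slpi, an inhibitor of leukocyte proteases, stood at 91.8 and 101.5 CPM against 306.7 and 196.2 CPM (2.60-fold, adjusted p = 0.00824). Lcn2, lipocalin 2, which withholds iron from bacteria by binding siderophores, stood at 77.0 and 95.8 CPM against 355.2 and 198.6 CPM (3.21-fold, adjusted p = 0.0376). For both the shDpep2.759 replicates differed by over 1.5 times, with replicate 1 the higher.

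Further genes, also named after their values were seen, showed that replicate difference more strongly and did not pass the test. S100a8, a calprotectin subunit, stood at 34.0 and 49.5 CPM in the shDpep2.968 libraries against 231.4 and 99.9 CPM in the shDpep2.759 libraries (adjusted p = 0.407). The acute phase gene Saa3 stood at 17.95 and 17.97 CPM in the shDpep2.968 libraries against 88.4 and 37.0 CPM in the shDpep2.759 libraries (adjusted p = 0.392). Wfdc17 stood at 47.2 and 57.4 CPM against 247.0 and 87.2 CPM, and Wfdc21 at 1.51 and 2.25 CPM against 14.5 and 5.51 CPM. In each of the 4 genes shDpep2.759 replicate 1 was the highest library and shDpep2.759 replicate 2 the next. Neutrophil and granule markers had 3 tested genes of 14, namely Lcn2, Csf3r and S100a8, and the defining neutrophil genes Ltf, Ngp, Retnlg and Ly6g were at 0 counts in all 4 libraries. Of the 14 markers 11 had under 10 counts in every library. The summed level of the list was 118.2 and 152.1 CPM with shDpep2.968 and 606 and 311 CPM in the shDpep2.759 libraries. The part of such cells in the result was not tested.

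NF-kB is a family of dimeric transcription factors that inflammatory receptors release from IkB inhibitors in the cytoplasm, and its targets include its own inhibitors. Its genes went both ways. Of 30 tested subunits, inhibitors and targets 3 were called: Ptgs2 higher with shDpep2.968, and Tnfrsf1b and Tnfaip3 higher with shDpep2.759. In all, 10 of 30 had an unadjusted p under 0.05 higher with shDpep2.759 (5.98% of all genes) and 2 higher with shDpep2.968 (5.58%). The median was -0.13, and -0.21 without shDpep2.968 replicate 2. Tnfrsf1b, the second receptor for tumour necrosis factor, stood at 379.8 and 415.5 CPM in the shDpep2.968 libraries, 749.2 and 711.1 CPM in the shDpep2.759 libraries and at 225.8 to 270.8 CPM with shNT. Its fold between the hairpins was 1.84 (adjusted p = 0.0376), and both hairpins lay above shNT. Tnfaip3, the ubiquitin-editing enzyme A20 that restrains NF-kB signalling, stood at 32.0 and 34.1 CPM against 54.8 and 60.5 CPM (1.74-fold, adjusted p = 0.0448), with shNT below both hairpins, at most at 21.4 CPM. Il6 had values in the other direction, at 13.1 and 17.7 CPM with shDpep2.968 and 8.18 and 7.39 CPM with shDpep2.759 (adjusted p = 0.0567); it was named after its values were seen.

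Chemokines were split in the same manner. Of 15 tested, Ccl22 was called higher with shDpep2.759 and Cxcl2 higher with shDpep2.968. Cxcl2, a neutrophil attractant, stood at 273.4 and 355.3 CPM in the shDpep2.968 libraries against 178.3 and 160.2 CPM in the shDpep2.759 libraries, a fold of 1.86 in favour of shDpep2.968 (log2 fold change 0.89, SE 0.19, adjusted p = 0.0393). The shNT libraries, at 226.4 to 248.0 CPM, lay between the hairpins. Ccl5 stood at 13.5 and 12.3 CPM against 38.0 and 21.2 CPM and did not pass (adjusted p = 0.0584); it too was named after its values were seen.

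The promoters of Slamf7, Tnfaip3 and Cxcl2 are shown because these genes were called, in different directions, and hold a match to a motif of an inflammatory factor. Each is the 250 bases before the gene start in RefSeq on GRCm38.p6, 5′ to 3′ on the gene's strand. Capitals mark matches to an NF-kB site in Tnfaip3 and Cxcl2 and to the AP-1 site TGANTCA in Slamf7, each searched on both strands. Tnfaip3 has 2 promoters, of which only the 1 shown held the NF-kB match. That promoter also holds a match to TGANTCA, which is left in lower case. Slamf7 lies at chr1:171649000-171649249 on the minus strand, Tnfaip3 at chr10:19015411-19015660 on the minus strand and Cxcl2 at chr5:90903649-90903898 on the plus strand.
Slamf7: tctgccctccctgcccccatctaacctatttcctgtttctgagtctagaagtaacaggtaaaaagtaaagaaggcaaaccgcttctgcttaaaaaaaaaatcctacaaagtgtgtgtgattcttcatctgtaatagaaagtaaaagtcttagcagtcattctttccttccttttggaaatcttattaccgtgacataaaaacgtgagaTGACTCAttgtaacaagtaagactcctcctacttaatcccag
Tnfaip3: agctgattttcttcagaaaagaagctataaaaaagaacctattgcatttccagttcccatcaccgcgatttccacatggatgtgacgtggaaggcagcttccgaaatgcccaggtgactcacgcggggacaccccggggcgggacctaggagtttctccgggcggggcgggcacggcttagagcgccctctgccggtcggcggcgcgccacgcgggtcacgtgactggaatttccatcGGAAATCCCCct
Cxcl2: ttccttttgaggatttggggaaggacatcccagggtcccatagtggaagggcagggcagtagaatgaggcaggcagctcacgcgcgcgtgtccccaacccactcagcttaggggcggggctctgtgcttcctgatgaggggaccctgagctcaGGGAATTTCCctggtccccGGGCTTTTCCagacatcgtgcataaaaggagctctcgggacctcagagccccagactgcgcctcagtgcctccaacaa
Cxcl2 held 2 matches, beginning 97 and 78 bases before the start, and Tnfaip3 held 1, on the opposite strand, beginning 12 bases before it. So a match was present in a gene higher with shDpep2.968 and in a gene higher with shDpep2.759. RefSeq promoters were found for 15 of the 20 genes higher with shDpep2.968 and 32 of the 43 higher with shDpep2.759. The NF-kB site occurred in 2 of the 15 (Cxcl2 and Rab15) and 2 of the 32 (Tnfaip3 and Sema4c), and in 5.77% of the 9524 tested genes and 4.71% of all 27025 genes with a promoter in the table. TGANTCA occurred in 2 of the 15 and 4 of the 32, against 5.65% of tested genes and 7.82% of all. An LXR element and a heat shock element were searched too. Neither had a match in the 15 or the 32, and 0.0105% and 0.462% of tested genes held one. A match describes a sequence and is not evidence of binding.

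Single genes of prostaglandin synthesis and of plasminogen activation were called, while their lists as a whole went both ways. Ptgs2, the inducible cyclooxygenase that makes prostaglandin H2, stood at 763.5 and 979.9 CPM in the shDpep2.968 libraries against 374.4 and 445.4 CPM in the shDpep2.759 libraries, a fold of 2.13 (log2 fold change 1.09, SE 0.19, adjusted p = 0.0172). With shNT it stood at 583.6 to 782.1 CPM, so its level with shDpep2.759 was below all other libraries. It was the 1 called gene of 23 tested leukotriene and prostaglandin genes, whose median was -0.07. Plau, the urokinase-type plasminogen activator, stood at 330.5 and 484.2 CPM in the shDpep2.968 libraries against 180.2 and 192.7 CPM in the shDpep2.759 libraries (2.18-fold, adjusted p = 0.0172). The shNT libraries held 165.9 to 188.0 CPM of Plau, so here the shDpep2.968 libraries stood apart. Serpinb2, plasminogen activator inhibitor 2, which blocks urokinase, was higher with shDpep2.759, at 11.3 and 15.6 CPM against 37.7 and 25.9 CPM (2.36-fold, adjusted p = 0.0219). Plau and Serpinb2 were the 2 called genes among 19 tested matrix protease and plasminogen genes, where 0.483% of all genes were called.

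Osteoclast genes are of interest in RAW264.7 because these cells form osteoclasts when given RANKL. Ocstamp, a membrane protein needed for the fusion of osteoclast precursors, was the 1 called gene of 21 tested. It stood at 18.2 and 15.8 CPM in the shDpep2.968 libraries, 5.11 and 5.51 CPM in the shDpep2.759 libraries and at 4.65 to 5.69 CPM with shNT. Its fold was 3.20 (log2 fold change 1.68, SE 0.22, adjusted p = 0.00198), and the shDpep2.759 libraries overlapped shNT. Over all genes 0.153% were called higher with shDpep2.968. The other members had 3 at an unadjusted p under 0.05 in each direction. Of all genes 5.58% were so higher with shDpep2.968 and 5.98% with shDpep2.759. The list median was -0.01 and ran from -0.18 to 0.13 with each library left out in turn.

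**Figure D3:**
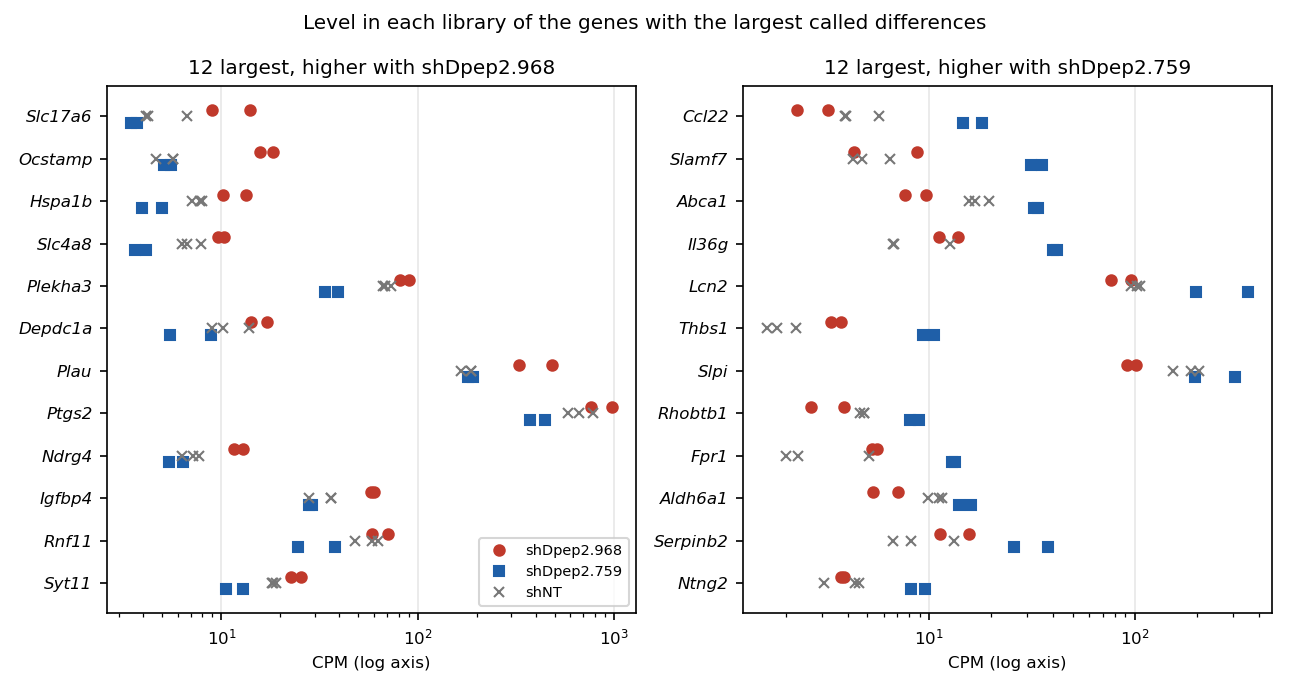
CPM (log axis) in each library of the 12 largest called increases and decreases with a mean of at least 5 CPM, with shDpep2.968 as red circles, shDpep2.759 as blue squares and shNT as grey crosses (shNT scaled over 7 libraries, the others over 4). The 24 genes were chosen to have libraries of the hairpins that do not overlap, so that separation is no result. The shNT libraries lie near shDpep2.759 for Plau and Ocstamp and near shDpep2.968 for Slamf7 and Lcn2.

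Lipid genes were represented by Abca1, the exporter that loads cholesterol onto apolipoprotein A-I and a target of the LXR receptors. Abca1 stood at 9.64 and 7.60 CPM in the shDpep2.968 libraries against 32.5 and 33.7 CPM in the shDpep2.759 libraries, a fold of 3.84 in favour of shDpep2.759 (log2 fold change -1.94, SE 0.20, adjusted p = 0.000173). The shNT libraries held 15.6 to 19.6 CPM, so the hairpins lay on opposite sides of shNT and none of the 3 groups overlapped another. It was the 1 called gene of 16 LXR target and efflux genes (median -0.28), of which 5 had an unadjusted p under 0.05 higher with shDpep2.759 (5.98% of all genes) and 1 higher with shDpep2.968 (5.58%). None of 24 sterol genes or 22 fatty acid synthesis genes was called, and their medians were -0.13 and -0.08. Scd2, a fatty acid desaturase, stood at 148.9 and 122.8 CPM against 316.4 and 191.4 CPM (adjusted p = 0.111), and Acly, ATP citrate lyase, had a log2 fold change of -0.72 (adjusted p = 0.0887).

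Amino acid and cofactor enzymes were few among the calls. Cth, cystathionine gamma-lyase, which makes cysteine, stood at 8.94 and 8.30 CPM in the shDpep2.968 libraries, 24.5 and 15.5 CPM in the shDpep2.759 libraries and at 31.9 to 44.8 CPM with shNT. It was therefore below shNT with both hairpins and 2.32-fold higher with shDpep2.759 than with shDpep2.968 (adjusted p = 0.0304). It was the 1 called gene of 34 ATF4 amino acid and stress genes (median -0.01) and of 28 glutathione and cysteine genes (median 0.00). Aldh6a1, methylmalonate semialdehyde dehydrogenase of valine breakdown, stood at 5.34 and 7.03 CPM against 15.9 and 14.02 CPM (2.42-fold, adjusted p = 0.0172). Blvrb, biliverdin reductase B, was 2.19-fold higher with shDpep2.759 (adjusted p = 0.0139). Blvrb was the 1 called gene of 23 NRF2 target genes. Among 20 cytosolic aminoacyl-tRNA synthetases and 21 endoplasmic reticulum chaperone genes none was called or had an unadjusted p under 0.05. Glycolysis and hypoxia genes had none of 32 called, with Pfkfb3 nearest at a log2 fold change of -0.75 (adjusted p = 0.0567).

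Lists of heat shock and cell cycle genes had the highest medians among those with at least 5 tested members. Hspa1b, an inducible HSP70 chaperone, stood at 13.4 and 10.2 CPM in the shDpep2.968 libraries against 3.96 and 4.99 CPM in the shDpep2.759 libraries (2.63-fold, adjusted p = 0.0172). The shNT libraries held 7.07 to 7.91 CPM, so the hairpins lay on opposite sides of shNT. Hspa1a, its near-identical copy, had at most 2 counts in any library, so the division of reads between the copies is uncertain. Hspa1b was the 1 called gene of 18 tested heat shock genes, and in 13 of the 18 both shDpep2.968 libraries lay above both shDpep2.759 libraries, against 21.9% of all genes. The median was 0.23, and 0.13 without shDpep2.968 replicate 2 and 0.15 without shDpep2.759 replicate 1. An unadjusted p under 0.05 was reached by 4 (5.58% of all genes in that direction), among them Hsph1, named after its values were seen, at 281.8 and 296.9 CPM against 189.3 and 232.6 CPM (adjusted p = 0.335).

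Of 35 tested G2/M genes none was called. A higher point value with shDpep2.968 was held by 33 of them, against 6597 of all 13045 genes tested. In 23 of the 35 both shDpep2.968 libraries lay above both shDpep2.759 libraries, against 21.9% of all genes. The median log2 fold change of the list was 0.26, 0.19 after the correction for GC content and length and 0.16 without shDpep2.759 replicate 1. Anln, the cytokinesis protein anillin, stood at 109.5 and 126.1 CPM against 58.6 and 77.5 CPM (log2 fold change 0.79, SE 0.18, adjusted p = 0.0613), and the centromere motor Cenpe had a log2 fold change of 0.46 (adjusted p = 0.367). Of 38 G1/S genes 1 was called, the cyclin Ccnd2, at 89.7 and 106.7 CPM against 51.7 and 59.9 CPM (1.76-fold, adjusted p = 0.0448). In 21 of the 38 both shDpep2.968 libraries were the higher, against 21.9% of all genes, and the median was 0.17. Mxd1, a MAX partner that opposes MYC, was 1.84-fold higher with shDpep2.759 (adjusted p = 0.0376), whereas Depdc1a, a gene of the mitotic cell cycle, was 2.19-fold higher with shDpep2.968 (adjusted p = 0.0495). The summed level of the G2/M list was 3375 and 3582 CPM with shDpep2.968 and 2710 and 3125 CPM with shDpep2.759, with shDpep2.759 replicate 1 the lowest.

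Adhesion genes had 2 of 27 called, both higher with shDpep2.759 (0.33% of all genes). The list median was -0.04, and 12 of the 27 had a higher point value with shDpep2.968. At an unadjusted p under 0.05, 7 were higher with shDpep2.759 (5.98% of all genes) and 3 higher with shDpep2.968 (5.58%). Thbs1, thrombospondin 1, stood at 3.72 and 3.34 CPM in the shDpep2.968 libraries, 9.34 and 10.5 CPM in the shDpep2.759 libraries and at 1.63 to 2.24 CPM with shNT (2.81-fold between the hairpins, adjusted p = 0.0133). Itga5, the integrin chain of the fibronectin receptor, stood at 267.0 and 228.2 CPM against 429.8 and 460.1 CPM (1.80-fold, adjusted p = 0.0448). In the lysosome list the 1 called gene of 45 was Ctsc, cathepsin C, which activates granule serine proteases, at 309.3 and 329.8 CPM against 676.2 and 605.9 CPM (2.01-fold, adjusted p = 0.0175). Qsox1, a secreted sulfhydryl oxidase, was 2.04-fold higher with shDpep2.759 (adjusted p = 0.0184).

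Several called genes are best known from neurons. Higher with shDpep2.968 were Slc17a6, a vesicular glutamate transporter, at 9.002 and 14 CPM against 3.46 and 3.70 CPM (3.21-fold, adjusted p = 0.00933), the synaptotagmin Syt11 (2.05-fold, adjusted p = 0.0312), the bicarbonate transporter Slc4a8 (2.58-fold, adjusted p = 0.0175) and Ndrg4 (2.09-fold, adjusted p = 0.0448). Rab15, a small GTPase of endosomal recycling, stood at 8.31 and 7.49 CPM in the shDpep2.968 libraries, 1.76 and 2.05 CPM in the shDpep2.759 libraries and at 2.03 to 3.15 CPM with shNT (4.14-fold, adjusted p = 0.00337). Higher with shDpep2.759 were the netrin relative Ntng2 (2.32-fold), the adhesion molecule L1cam (1.97-fold), the synapsin Syn1 (2.02-fold) and Sez6l2 (2.16-fold), with adjusted p from 0.0133 to 0.0448. They were grouped after their values were seen and went in both directions. Plekha3, which binds phosphatidylinositol 4-phosphate at the Golgi, stood at 81.5 and 90.0 CPM in the shDpep2.968 libraries against 33.7 and 39.5 CPM in the shDpep2.759 libraries (2.34-fold, adjusted p = 0.00337), below shNT with shDpep2.759 alone. Igfbp4, which binds insulin-like growth factors, was 2.08-fold higher with shDpep2.968 (adjusted p = 0.0107), the ubiquitin ligase gene Rnf11 2.07-fold (adjusted p = 0.0376), and Rhobtb1 was 2.59-fold higher with shDpep2.759 (adjusted p = 0.0343).

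None of 47 type I interferon response genes was called (median -0.08), nor any of 28 interferon-inducible GTPase and antigen presentation genes (median -0.14). At an unadjusted p under 0.05 the first list had 6 genes higher with shDpep2.759 and 0 higher with shDpep2.968, and the second had 6 and 1, where 5.98% and 5.58% of all genes were so. Ifi204 stood at 67.4 and 90.3 CPM in the shDpep2.968 libraries against 122.9 and 134.8 CPM in the shDpep2.759 libraries (adjusted p = 0.0991). With the correction for GC content and length Ifi204 was called (adjusted p = 0.0156), as it was in 7 of 18 alternative fits (adjusted p from 0.00110 to 1). Mx1 had a log2 fold change of -0.66 (adjusted p = 0.205). The GTPase genes Gbp2 and Gbp7 had log2 fold changes of -1.10 and 0.63 (adjusted p of 0.110 and 0.159). Outside those lists Ifi211, of the same gene family as Ifi204, was called 2.05-fold higher with shDpep2.759 (adjusted p = 0.0191), and reads may be shared within that family. None of 31 pattern recognition genes was called, with Casp1 and Myd88 at log2 fold changes of -0.58 and -0.48, and none of 22 genes of small-RNA processing and double-stranded RNA sensing, with Zc3h12a at -0.48 and Ago4 at -0.55. Their medians were -0.11 and 0.02.

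Ribosomal protein genes had none of 44 called. A lower point value with shDpep2.968 was held by 42 of them, against 6448 of all 13045 genes tested, and the median was -0.30. This rested on shDpep2.759 replicate 1, whose summed level was 33140 CPM against 22060 to 23480 CPM in the other 3 libraries, and the median was 0.01 without it. Rpl28 had a log2 fold change of -0.62 (adjusted p = 0.394), and such genes share reads with pseudogenes. Oxidative phosphorylation genes had none of 37 called and a median of -0.11, with a summed level of 7071 CPM in shDpep2.759 replicate 1 against 5713 to 5939 CPM elsewhere. Cox6c stood at 57.7 and 59.5 CPM in the shDpep2.968 libraries against 120.6 and 69.3 CPM in the shDpep2.759 libraries. Mitochondrially encoded genes had none of 13 called, and their summed level was lowest in the same library, at 19350 CPM against 23650 to 26650 CPM. Their median of 0.16 turned to -0.04 with the correction for GC content and length and to -0.15 without shDpep2.759 replicate 1, and was 0.55 without shDpep2.759 replicate 2. Nuclear long non-coding RNAs had none of 10 called and a median of -0.39. Their summed level was 1099 and 678.7 CPM with shDpep2.968 and 1040 and 873.5 CPM with shDpep2.759. The shDpep2.968 replicates were thus the highest and the lowest library in that sum. Replication-dependent histone genes had none of 9 called and a median of -0.32. The part of RNA quality or library preparation in these differences was not tested.

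The remaining lists stayed close to the median of all genes. None of 35 immediate early and dual-specificity phosphatase genes, 27 p53 targets or 28 myeloid lineage transcription factors was called, with medians of -0.03, 0.02 and -0.04. Of 15 alternative activation genes Ccl22 was the 1 called, and the median was -0.05. Markers of other cell types were scarce: 3 of 15 fibroblast and matrix markers, 3 of 18 lymphocyte markers and 0 of 12 epithelial markers passed the count filter, and none was called.

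**Figure D4:**
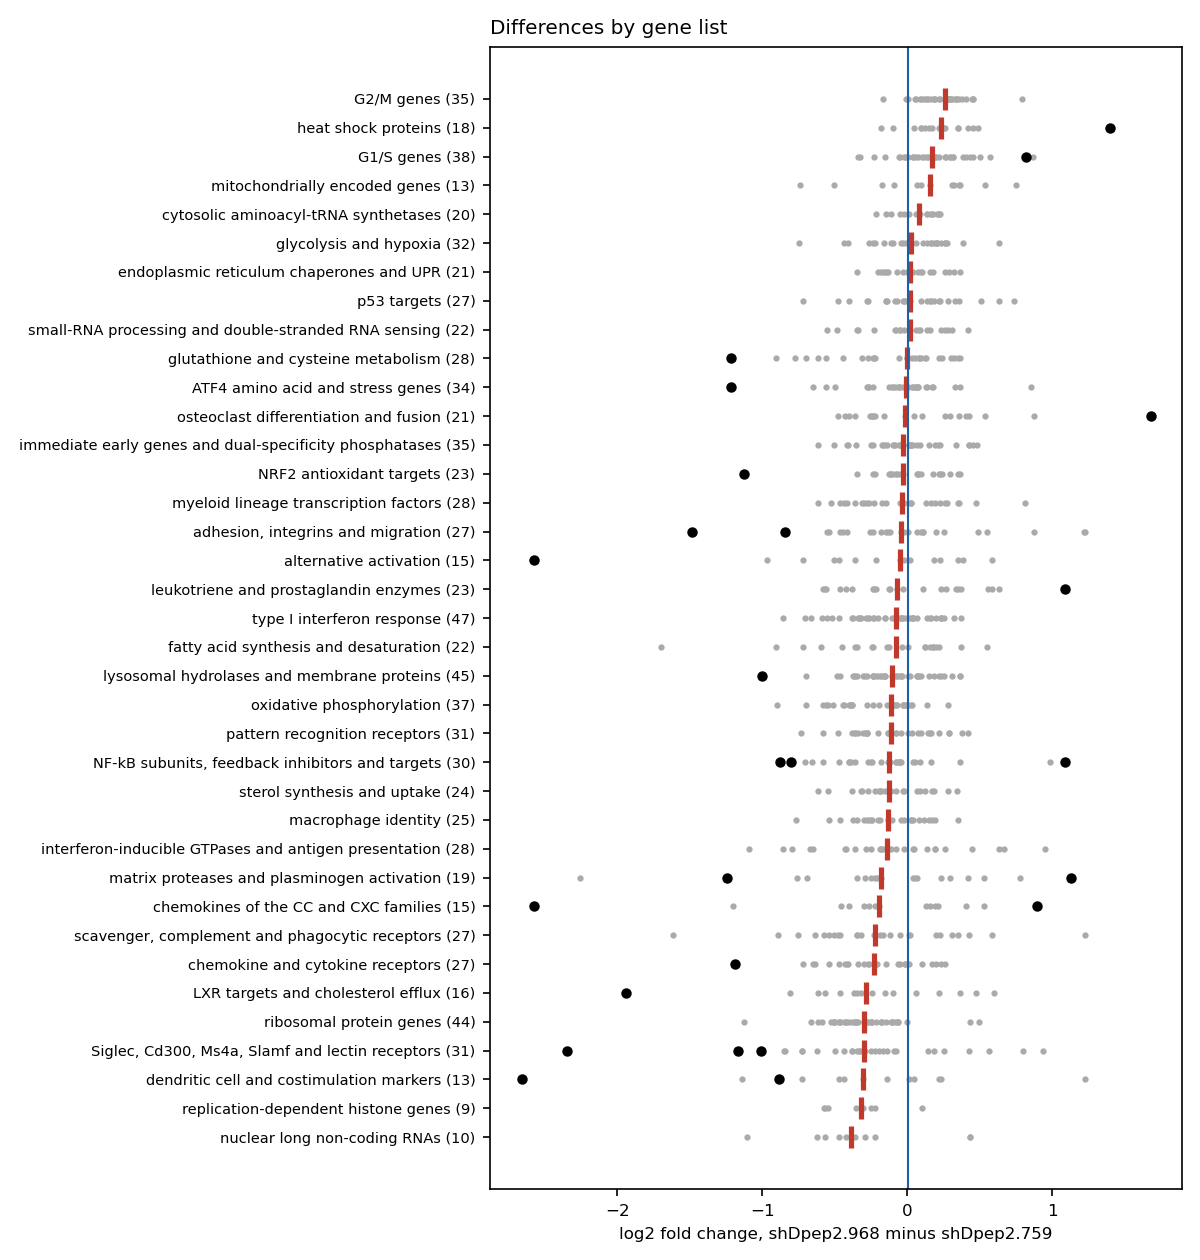
Log2 fold change between the hairpins (shDpep2.968 minus shDpep2.759) for each tested member of the lists with at least 5 tested members, with the number tested in brackets. Grey points are members, black points called members and red bars list medians, and the blue line is the median of all genes tested, 0.00. List medians run from -0.39 for nuclear long non-coding RNAs to 0.26 for G2/M genes.

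The shNT level places these differences. Its mean lay between the hairpins for 17 of the 20 genes higher with shDpep2.968, counting Gm20507, where shNT and shDpep2.759 were tied at 0, and for 25 of the 43 higher with shDpep2.759. For 16 of the 43, among them Slamf7, Il36g, Cd83, Tnfrsf1b, Tnfaip3, Siglece and Thbs1, both group means lay above the shNT mean and shDpep2.759 the further. For Clip4, Ocstamp and Plau both group means also lay above the shNT mean, with shDpep2.968 the further and the shDpep2.759 libraries overlapping shNT, and for Cth and Gm18445 both lay below it. These genes were chosen on the difference between the hairpins, so their position against shNT is a description with no test. Gm20507, a predicted gene outside the naming rule, had 17 and 19 counts with shDpep2.968 and 0 in the other 5 libraries, and was at least 6.12-fold higher with shDpep2.968 than with shDpep2.759, counting 3 counts per library as the floor. No gene had 30 or more counts in both libraries of 1 hairpin and at most 3 in both of the other. The 61 called genes placed by RefSeq lay on 16 of 20 chromosomes, and the median log2 fold change of a chromosome ran from -0.05 to 0.06.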

How the data were processed

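Gene expression in RAW264.7 cells was measured from TruSeq Stranded Total RNA libraries read as paired ends, per the labels' protocols. The deposited table holds whole-number counts per gene symbol. Trim Galore and Salmon are named in the submitters' processing notes, without versions or roles, as is the human build hg38, although the symbols are mouse. No source used here gives the annotation, strand setting or any rounding, so overlapping and near-identical genes are uncertain.

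The 4 hairpin libraries, grouped by title, received TMM factors and a model of 1 mean for each hairpin in edgeR 4.0.16 (R 4.3.3, robust quasi-likelihood, 2 residual degrees of freedom, common biological coefficient of variation 15.8%). P-values were Benjamini-Hochberg adjusted over 13045 genes. Alternatives used limma 3.58.1, DESeq2 1.42.0 and the other settings of the closing section. GC content and length came from GENCODE M21 transcripts and covered 97.1% of tested genes. Replicates were not repeats of 1 library: the chi-square of their counts was 19.8 and 45.3 times its degrees of freedom.

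Named genes were Dpep2, the 12 largest called differences each way among genes averaging 5 CPM or more, with separate libraries and an established name, and up to 4 called members per list, or 2 members as values. Other called genes and a few uncalled ones are named outside that rule, after their values were seen. The 41 gene lists and the comparison were chosen with earlier results of these data known, and lists are described by count and median. On simulated data the fit recovered most 4-fold changes, while the share of false calls exceeded the nominal threshold. The simulated libraries held no trend with GC content, unlike the libraries here. A few genes that the rule would name are not reported here.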

Additional observations from a re-analysis of the deposited data

How the results depend on the processing

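The count of 63 called genes stayed within 1.5 times under DESeq2 size factors, library size alone, filterByExpr and without shDpep2.759 replicate 1. It was 95 with at least 1 CPM in 2 libraries, 412 with no low-count filter, 139 with DESeq2, 9 with limma-voom, 9 with no robust estimation, 115 with all 7 libraries in the fit, 6 with a minimum fold of 1.5 and 130 with the GC and length correction. With each library left out in turn it ran from 3 to 1138. Chosen after seeing the data, the correction with all 7 libraries gave 425. The share of calls higher with shDpep2.968 was 31.7%, against 44.4% with limma-voom or no robust estimation and 40.8% with the GC and length correction.

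Same-numbered replicates deviated together only weakly (Pearson 0.0683 across genes). A correlation over all genes cannot show whether they shared a batch, and the labels give only a number. With each hairpin, the deviation of replicate 1 correlated more positively with GC content than that of replicate 2. The Spearman values were 0.182 against -0.479 for shDpep2.968 and 0.363 against -0.0899 for shDpep2.759. A shared batch was not tested. With the replicate number as a block 293 genes were called (51.5% higher with shDpep2.968), and the block with the GC and length correction gave 0, with 1909 genes at an unadjusted p under 0.05. A block pairing crossed numbers, chosen after seeing the data, gave 209.

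Dpep2 did not pass in any of 18 alternative fits (adjusted p 0.563 to 1), and its difference ran from -0.29 to 0.05, turning positive at 0.0199 without shDpep2.968 replicate 2 and 0.0466 without shDpep2.759 replicate 1. Cd79a, a lymphocyte marker, moved from -0.34 to between -0.8143 and 0.0433 with each library left out, positive only without shDpep2.759 replicate 1. The number of listed genes called ran from 0 to 160 with each library left out and was 37 with the GC and length correction, against 23. Leaving out a library leaves 1 alone, assumed to vary like the other hairpin's pair. Precision is limited by 2 libraries per hairpin.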
